A study of Mus musculus with 6 samples.

Results

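The genes described here encode coreceptors linked to LPS recognition and adaptors, kinases and a ubiquitin ligase of the MyD88 pathway. They were chosen by symbol, as 10 of the 54532 genes listed with transcript levels, and are the coreceptor genes Cd14, Ly96 and Cd180, the adaptor genes Myd88 and Tirap, the kinase genes Irak1, Irak2, Irak3 and Irak4, and the ubiquitin ligase gene Traf6. Each symbol matched 1 row, and all 10 genes passed the filter on low values. The levels came from RNA-seq of primary bone-marrow-derived macrophages (BMDMs) of wildtype C57BL/6 mice, grown in medium conditioned by L929 cells. The 6 libraries formed 3 groups of 2, named replicates A and B. Untreated BMDMs received neither agent, the LPS group received 100 ng/ml LPS for 2 h, and the Met + LPS group was kept for 6 h in metformin at 5 mM before the same dose and time of LPS. Metformin is an antidiabetic drug that inhibits mitochondrial complex I and activates the kinase AMPK. No group received metformin without LPS, so that an effect of metformin on resting cells could not be compared. The cells were seeded in duplicate and the labels do not say whether replicates A and B came from separate mice. The p-values therefore measure only the spread between these libraries, which may be technical.

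LPS, a glycolipid in the outer leaflet of the envelope of Gram-negative bacteria, is handed by the surface protein CD14 to a complex of TLR4 and MD-2, the product of Ly96. The activated receptor recruits TIRAP and MyD88, which assemble the kinases IRAK4, IRAK1 and IRAK2 into a signaling platform, and the IRAKs in turn engage TRAF6, which leads to activation of NF-κB and MAP kinases. IRAK3, also called IRAK-M, is a family member that restrains this signal and is known for its role in endotoxin tolerance, while CD180, also called RP105, is a TLR4-like surface protein that pairs with MD-1, the product of Ly86.

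Stretches upstream of RefSeq start sites are shown for the 2 adaptor and kinase genes that rose most after LPS, Irak2 and Myd88. They are also shown for the 2 that fell, Irak1 and Irak4. The fall of Irak1 depended on the scaling between libraries, as given below. The sequences are from RefSeq on build GRCm38.p6 and read 5′ to 3′ on the strand of each gene. Capitals mark matches to the motifs searched, on either strand, and bases in annotated exons of protein-coding or long noncoding genes were left out. The Myd88 stretch lies inside the gene span listed with its transcript levels (chr9:119335934-119341411), upstream of a RefSeq start within it. The stretch of Irak2 (chr6:113638217-113638466, plus strand) held no match, that of Myd88 (chr9:119340042-119340268, minus strand) held the palindrome around TATAAA and a pair of GAAA copies, that of Irak1 (chrX:74023922-74024171, minus strand) held a kappaB consensus match that reaches into the annotated miRNA gene Mir718, and that of Irak4 (chr15:94543548-94543642, plus strand) held adjoining CCGGAAG and CCAAT matches.
Irak2: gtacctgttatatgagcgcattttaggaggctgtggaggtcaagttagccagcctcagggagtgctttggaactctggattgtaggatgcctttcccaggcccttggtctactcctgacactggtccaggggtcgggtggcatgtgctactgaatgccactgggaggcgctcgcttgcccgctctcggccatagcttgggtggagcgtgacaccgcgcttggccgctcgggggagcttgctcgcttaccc
Myd88: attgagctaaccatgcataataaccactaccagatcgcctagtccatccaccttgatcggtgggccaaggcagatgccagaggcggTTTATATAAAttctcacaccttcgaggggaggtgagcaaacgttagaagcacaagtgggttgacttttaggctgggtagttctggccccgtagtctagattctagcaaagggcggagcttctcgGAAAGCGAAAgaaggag
Irak1: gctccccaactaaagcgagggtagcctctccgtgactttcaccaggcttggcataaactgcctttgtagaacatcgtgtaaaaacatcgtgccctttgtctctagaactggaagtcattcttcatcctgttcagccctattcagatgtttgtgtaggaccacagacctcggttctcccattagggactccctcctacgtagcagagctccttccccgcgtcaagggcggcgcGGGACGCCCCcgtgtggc
Irak4: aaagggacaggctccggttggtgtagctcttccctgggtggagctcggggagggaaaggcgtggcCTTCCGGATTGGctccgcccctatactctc

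Promoter windows from 250 bases before to 50 bases after a start were found for 8 of the 10 genes, in 12 windows, and were searched on both strands for 7 motifs. No window was found for Cd14 or Ly96, so that the counts of motifs leave these genes out. The kappaB consensus was found in 1 of the 8 genes, Irak1, at 18 bases before the start shown, and in 8.46% of all 32851 windows of this length. The spaced GAAA pair, 2 copies of GAAA set 2 bases apart, was found only in Myd88 among the 8 genes, at 40 bases before its start, and in 3.44% of all windows, and TATAAA likewise only in Myd88 and in 13.6% of all windows. CCGGAAG was found in Tirap and Irak4 and in 8.86% of all windows, while CCAAT was found in Cd180, Irak3 and Irak4 and in 37.4% of all windows. Neither TGANTCA (7.81% of all windows) nor TGACGTCA (1.79%) was found in any of the 8 genes. These matches describe the letters in the windows and were not tested as binding sites.

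Levels are given in TPM, a unit in which the read count of a gene is divided by its length and every library is then brought to a common sum. The TPM values corresponded to 25457016 to 30762754 reads per library, and the 10 genes rested on at least 282 reads in every library. Macrophage markers were present throughout, with 7 of 7 at 1 TPM or more in every library, and their summed level ran from 43710 to 45600 TPM in untreated, from 34526 to 35264 TPM in LPS and from 28763 to 28884 TPM in Met + LPS libraries. Lyz2 made up most of this sum, with means of 34912, 26835 and 21292 TPM in the respective groups. Without overlap of libraries, 1 of the 7, Adgre1, was higher and 5 were lower with LPS, beside 20.1% and 71.5% of all tested genes. In Met + LPS vs. LPS 0 were higher and 6 lower, beside 33.8% and 40.0%. The mean of Cd68 was 4777 TPM with LPS alone and 4783 TPM with metformin before LPS. Markers of other cells were low in all libraries, with summed levels of at most 3.18 TPM for B cells, 0.137 TPM for T cells, 1.56 TPM for mast cells, 0.846 TPM for stromal cells and 6.08 TPM for dendritic cells. The T cell gene Cd3g and the mast cell genes Mcpt4 and Fcer1a were listed at 0 in every library. Neutrophil markers summed to 27.2 to 30.9 TPM in untreated, 24.4 to 25.8 TPM in LPS and 40.2 to 42.0 TPM in Met + LPS libraries. The part of these differences in the results was not tested, and in bulk samples fewer cells of a type and less RNA per cell cannot be told apart.

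**Figure D1:**
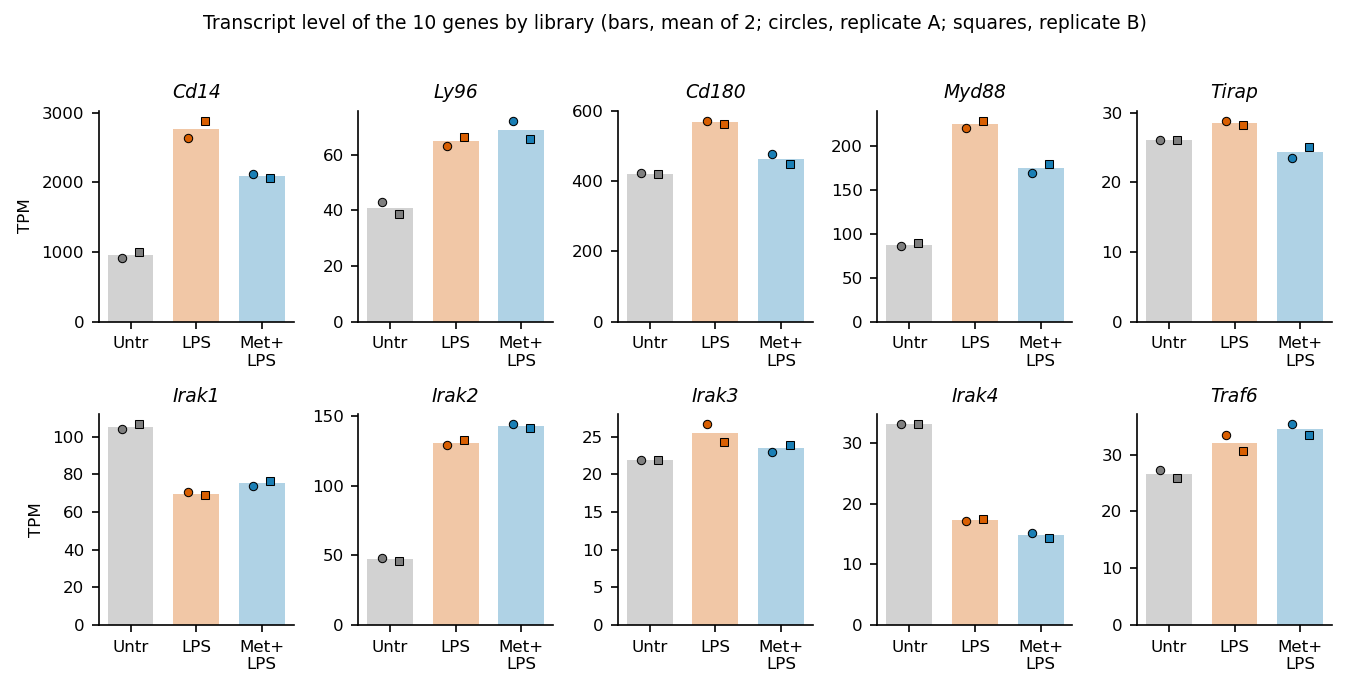
TPM of each of the 10 genes (vertical axes, linear, each from 0) in the 6 libraries, with bars for the mean of 2 libraries, circles for replicate A and squares for replicate B. Cd14, Myd88 and Irak2 stand far higher in the LPS libraries than in untreated ones, Irak1 and Irak4 stand lower, and Cd14, Cd180 and Myd88 are lower in Met + LPS than in LPS libraries.

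In untreated BMDMs the 10 genes spanned from 21.9 ± 0.0432 TPM for Irak3 to 955 ± 61.5 TPM for Cd14 (SD, n = 2). The order of levels, from high to low, was Cd14, Cd180, Irak1, Myd88, Irak2, Ly96, Irak4, Traf6, Tirap and Irak3. Of the neighbours in this order, Traf6 and Tirap overlapped between libraries, while every other pair was apart. After LPS the order was Cd14, Cd180, Myd88, Irak2, Irak1, Ly96, Traf6, Tirap, Irak3 and Irak4, with no overlap between neighbours. Irak1 thus moved from the third to the fifth place and Irak4 from the seventh to the last, and in Met + LPS libraries the order was that of the LPS libraries, with Tirap and Irak3 overlapping.

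The comparison of LPS vs. untreated asked how the components of the LPS receptor pathway respond to the stimulus itself within the first hours. Cd14, Irak2 and Myd88 rose 2.89-fold, 2.77-fold and 2.56-fold in mean TPM, Ly96, Cd180 and Traf6 rose by smaller amounts, and Irak4 and Irak1 fell to 0.522 and 0.663 of their untreated level. Tirap and Irak3 did not pass the test. A gene is said to have risen or fallen where the limma test on log2(TPM + 1) over 12755 genes gave a Benjamini-Hochberg adjusted p under 0.01, so that 6 of the 10 genes rose and 2 fell. Of all tested genes, 16.2% rose and 60.1% fell, and 76.3% changed in either direction. The libraries of the groups did not overlap for any of the 10 genes, with 8 higher and 2 lower after LPS, against 20.1% higher and 71.5% lower among all tested genes.

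The count of falls across all genes depended on the scaling. The median log2 fold change of all tested genes was -0.48 in LPS vs. untreated on the TPM scale, and -0.01 after each library was rescaled by the median ratio of its genes to their geometric mean over libraries, with size factors of 1.28 for both untreated libraries and 0.880 to 0.891 for the others. After rescaling, 30.6% of all tested genes rose and 27.6% fell, and of the 10 genes 8 rose and 1 fell. The median log2 fold change of the 10 genes was 0.35 on the TPM scale and 0.86 after rescaling. None of the 10 genes had an absolute log2 fold change of 2 or more on the TPM scale, the cut-off the study set for this comparison, which 6.08% of all tested genes passed. The study applied this cut-off to fold changes from DESeq2 on counts, which were not recomputed here, so that the counts given here are not the study's own. At an unadjusted p under 0.05 in limma the count past this cut-off was 0 as well, beside no less than those 6.08% of all tested genes. By voom on reads it was 0, beside 12.5% of all genes by voom. After rescaling in limma the count was 1, Cd14 at 2.06, beside 6.22% of all tested genes, and Irak2 was just below the cut-off at 1.97.

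**Figure D2:**
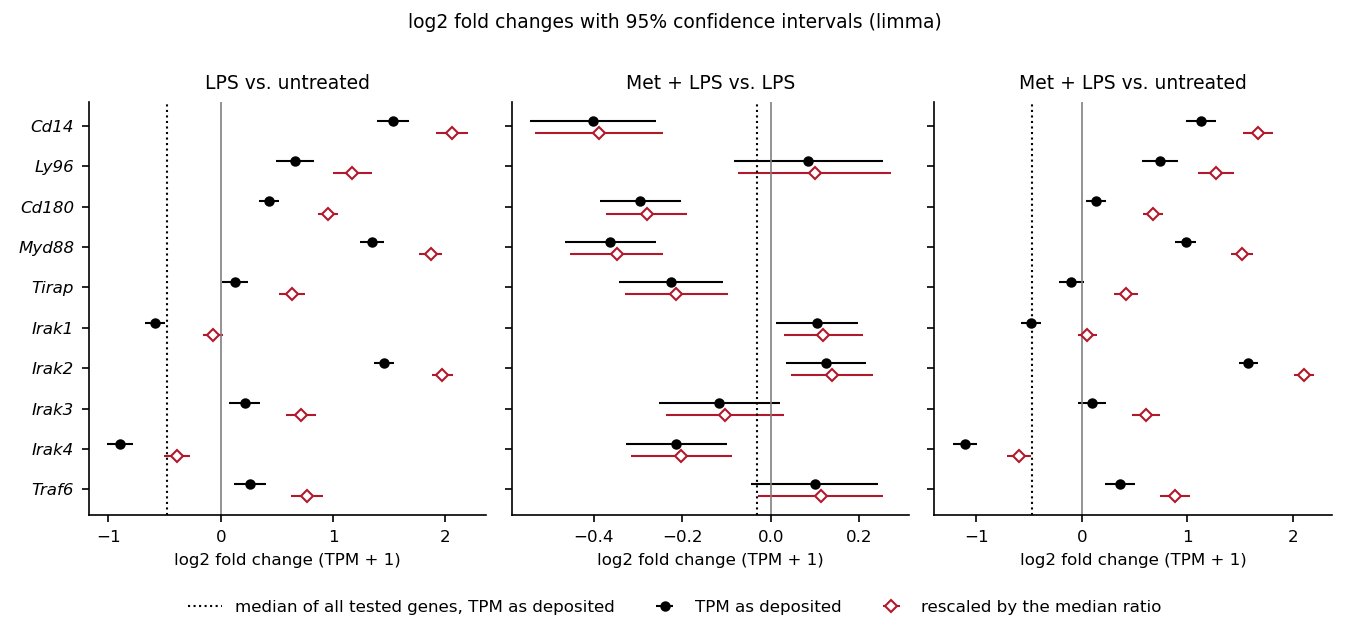
log2 fold change of the 10 genes with 95% confidence intervals from limma (horizontal axes, log2 of TPM + 1) in LPS vs. untreated, Met + LPS vs. LPS and Met + LPS vs. untreated, with filled circles for TPM as deposited, open diamonds for values rescaled by the median ratio, and dotted lines for the median of all tested genes on the TPM scale. Rescaling shifts every gene upward against the untreated group, which takes Irak1 from -0.59 to -0.07 in LPS vs. untreated and turns Tirap and Irak1 in Met + LPS vs. untreated from -0.10 and -0.48 to 0.42 and 0.05, while it changes Met + LPS vs. LPS little.

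Of the coreceptor genes, Cd14 stood at 911 and 998 TPM in untreated replicates A and B and at 2639 and 2886 TPM in the LPS libraries. Both LPS libraries were far above both untreated ones. The log2 fold change was 1.53 (SE 0.059, limma adjusted p = 1.29e-06), higher than that of 94.4% of the tested genes, and it was 2.06 after rescaling. Ly96, which encodes the LPS-binding subunit MD-2 of the receptor, stood at 42.9 and 38.6 TPM without LPS and at 63.0 and 66.4 TPM with it. The groups did not overlap, and Ly96 rose by 0.66 on the log2 scale (SE 0.070, limma adjusted p = 0.000125). Cd180, the TLR4 homologue, stood at 422 and 420 TPM in untreated and at 572 and 563 TPM in LPS libraries. Here too both LPS libraries were higher, with a log2 fold change of 0.43 (SE 0.038, limma adjusted p = 5.25e-05). All 3 coreceptor genes rose after LPS on the TPM scale and after rescaling, where Ly96 and Cd180 were at 1.17 and 0.95.

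Both adaptor genes are on chromosome 9 and gave different results. Myd88, the adaptor shared by most Toll-like receptors and the IL-1 receptor, stood at 86.1 and 89.6 TPM in untreated and at 220 and 229 TPM in LPS libraries. The LPS libraries were well apart from the untreated ones, and the log2 fold change of 1.35 (SE 0.043, limma adjusted p = 5.37e-07) lay above that of 93.6% of the tested genes. Tirap, the adaptor that bridges TLR4 to MyD88 at the membrane, stood at 26.0 and 26.2 TPM in untreated and at 28.9 and 28.3 TPM in LPS libraries. Both LPS libraries were higher, but the difference was small, at 0.13 on the log2 scale (95% confidence interval 0.0093 to 0.24), and did not pass the test (limma adjusted p = 0.0457). After rescaling Tirap was at 0.63 and passed (adjusted p = 3.73e-05), so that whether this adaptor changed depended on the scaling.

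Of the 4 IRAK genes, Irak2 rose and Irak4 fell on the TPM scale and after rescaling, Irak1 fell on the TPM scale only, and Irak3 did not pass the test on the TPM scale. Irak2, the kinase-family member associated with sustained TLR signaling, stood at 48.2 and 46.3 TPM in untreated and at 129 and 133 TPM in LPS libraries, and its groups were far apart. The log2 fold change was 1.45 (SE 0.038, limma adjusted p = 2.12e-07), higher than that of 94.05% of the tested genes. Irak1, which is modified and degraded at the protein level after receptor engagement, stood at 104 and 107 TPM without LPS and at 70.8 and 69.0 TPM with it. Both LPS libraries were lower, and Irak1 fell by 0.59 on the log2 scale (SE 0.038, limma adjusted p = 1.29e-05). Its log2 fold change was higher than that of 42.4% of the tested genes, and after rescaling it was -0.07 (95% confidence interval -0.15 to 0.024, adjusted p = 0.156) and no longer passed.

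Irak4, the kinase that first joins MyD88, stood at 33.1 and 33.2 TPM in untreated and at 17.2 and 17.4 TPM in LPS libraries, with both LPS libraries lower. It fell by 0.90 on the log2 scale (SE 0.047, limma adjusted p = 4.88e-06), and it fell after rescaling too, by 0.39 (adjusted p = 0.000369). Irak3, the inhibitory member, stood at 21.9 and 21.8 TPM in untreated and at 26.7 and 24.3 TPM in LPS libraries. Both LPS libraries were higher, yet the log2 fold change of 0.21 (95% confidence interval 0.075 to 0.35) missed the threshold (limma adjusted p = 0.0111). Irak3 passed after rescaling, at 0.71, by voom (adjusted p = 0.0033), with a minimum of 5 TPM (0.00793) and without LPS replicate B (0.00675), while its adjusted p without the other libraries reached 0.0585.

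Traf6, the ubiquitin ligase that receives the signal from the IRAKs, stood at 27.2 and 25.9 TPM in untreated and at 33.5 and 30.7 TPM in LPS libraries. The groups did not overlap, and Traf6 rose by 0.26 on the log2 scale (SE 0.060, limma adjusted p = 0.0054). It was the smallest of the 6 increases. The call was lost without untreated replicate A (adjusted p = 0.0208), without untreated replicate B (0.0464) and without LPS replicate A (0.0313), as well as with no filter (0.0161) and with eBayes without a trend (0.0144), while after rescaling the value was 0.77.

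The makeup of the IRAK transcripts in a library does not depend on a scaling between libraries, since a factor common to a library cancels in a share. A share can fall because another gene rose, so that the shares do not give the direction of a single gene. Irak1 made up 50.2% and 51.3% of the summed TPM of Irak1 to Irak4 in untreated replicates A and B, and 29.0% and 28.3% in the LPS libraries. Irak2 made up 23.2% and 22.2% in untreated and 53.0% and 54.5% in LPS libraries, so that the prevailing IRAK transcript was Irak1 before and Irak2 after the stimulus. The ratio of Irak2 to Irak1 was 0.448 ± 0.0210 in untreated and 1.88 ± 0.0683 in LPS libraries (SD, n = 2). Irak4 went from 16.0% in both untreated libraries to 7.05% and 7.16%, whereas Irak3 stayed between 10.0% and 10.9% in these 4 libraries. The summed TPM of the 4 genes was 208 ± 0.565 in untreated and 244 ± 0.360 in LPS libraries. The ratio of inhibitory Irak3 to Irak4 was 0.659 ± 0.00214 in untreated and 1.47 ± 0.110 in LPS libraries. With 2 libraries against 2, the smallest p-value an exact two-sided permutation test can give is 0.33, so that these shares and ratios were not tested.

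**Figure D3:**
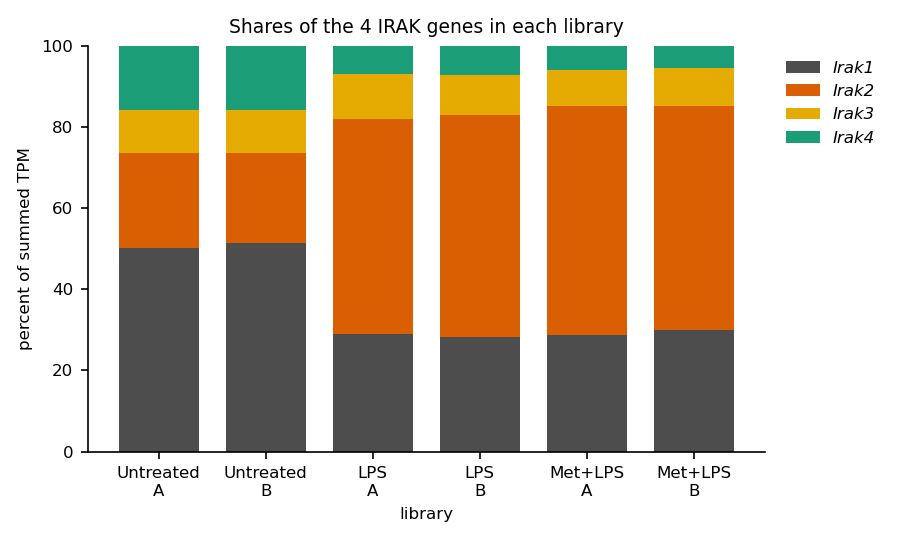
Shares of Irak1, Irak2, Irak3 and Irak4 in their summed TPM (vertical axis, percent from 0 to 100) in each of the 6 libraries. Irak1 takes 50.2% and 51.3% of the bar in the untreated libraries, and Irak2 takes 53.0% to 56.3% in the 4 libraries with LPS.

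The comparison of Met + LPS vs. LPS asked what metformin pretreatment changed in this pathway in LPS-stimulated cells. Metformin pretreatment went with lower levels of Cd14, Myd88, Cd180 and Tirap, at 0.756, 0.777, 0.816 and 0.850 of their mean TPM with LPS alone. No IRAK gene and neither Ly96 nor Traf6 passed the test, and Irak2 and Irak1 were slightly above their LPS level. In all, 0 of the 10 genes rose and 4 fell, while 14.5% of all tested genes rose and 18.0% fell. At an unadjusted p under 0.05 in limma 2 genes were higher and 5 lower, beside 24.9% and 30.0% of all tested genes, and by voom 0 rose and 5 fell, beside 18.7% and 22.9% of all genes by voom. The libraries did not overlap for 2 genes that were higher and 6 that were lower, against 33.8% higher and 40.0% lower among all tested genes. The median log2 fold change was -0.16 over the 10 genes and -0.03 over all tested genes, and rescaling left 3 falls, without Tirap, beside 17.4% of all tested genes. None of the 10 genes reached the study's cut-off of 0.7 for this comparison, which 8.28% of all tested genes passed in limma. At an unadjusted p under 0.05 in limma the count was 0 as well, beside no less than those 8.28%. By voom it was 0, beside 11.1% of all genes by voom. The study set this cut-off, too, on fold changes from DESeq2. This comparison and that of LPS vs. untreated share the LPS libraries, so that the values are given side by side only.

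Cd14 stood at 2114 and 2064 TPM in Met + LPS replicates A and B, both below the 2763 ± 175 TPM of the LPS libraries (SD, n = 2). It fell by 0.40 on the log2 scale (SE 0.059, limma adjusted p = 0.0019). The direction held without any single library, with log2 fold changes from -0.47 to -0.34, but the adjusted p rose to 0.0109 without LPS replicate B, 0.0139 without Met + LPS replicate A and 0.0179 without Met + LPS replicate B, and to 0.0161 with no filter and 0.0108 with eBayes without a trend. Cd180 stood at 478 and 448 TPM in the Met + LPS libraries, below both LPS libraries at 568 ± 6.49 TPM. It fell by 0.29 on the log2 scale (SE 0.038, limma adjusted p = 0.00112), and kept its call under all 13 alternative settings. Ly96 stood at 72.2 and 65.4 TPM in the Met + LPS libraries, which overlapped the LPS libraries at 64.7 ± 2.39 TPM. Its log2 difference was 0.08 (95% confidence interval -0.083 to 0.25, limma adjusted p = 0.36).

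Myd88 stood at 170 and 180 TPM in the Met + LPS libraries, with both below the LPS libraries at 225 ± 6.19 TPM and both far above the untreated ones. It fell by 0.36 on the log2 scale (SE 0.043, limma adjusted p = 0.000779) and kept its call under all 13 alternative settings. Tirap stood at 23.5 and 25.1 TPM, below the LPS libraries at 28.6 ± 0.418 TPM. It fell by 0.23 on the log2 scale, just past the threshold (SE 0.049, limma adjusted p = 0.00931). The call of Tirap was lost after rescaling (adjusted p = 0.0113), with the replicate letter as a block (0.0149), with a pseudocount of 0.1 (0.01003), with no filter (0.0194), with the compared groups only (0.0289), with eBayes without a trend (0.0208) and without any 1 of the 4 libraries compared, where its adjusted p ran from 0.012 to 0.0479.

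Irak2 stood at 144 and 141 TPM in the Met + LPS libraries, both above the LPS libraries at 131 ± 2.38 TPM. The difference of 0.12 on the log2 scale (95% confidence interval 0.034 to 0.21) did not pass the test (limma adjusted p = 0.0328), and the interval held no decrease. Irak1 stood at 73.8 and 76.7 TPM, above the LPS libraries at 69.9 ± 1.28 TPM, with a log2 difference of 0.10 (95% confidence interval 0.013 to 0.20, limma adjusted p = 0.0625). Irak4 stood at 15.1 and 14.4 TPM, both below the LPS libraries at 17.3 ± 0.176 TPM. Its log2 difference of -0.21 (95% confidence interval -0.33 to -0.099) missed the threshold narrowly (limma adjusted p = 0.0104). It passed by voom (adjusted p = 0.0058, and 0.00934 with rescaling) and with a minimum of 5 TPM (0.00829). In limma it did not pass after rescaling (adjusted p = 0.0134) or with the replicate letter as a block (0.0173).

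Irak3 stood at 23.0 and 23.9 TPM with metformin, below both LPS libraries at 25.5 ± 1.64 TPM. The log2 difference of -0.12 (95% confidence interval -0.25 to 0.021) did not pass the test (limma adjusted p = 0.14). Traf6 stood at 35.4 and 33.5 TPM, which overlapped the LPS libraries at 32.1 ± 2.02 TPM, with a log2 difference of 0.10 (95% confidence interval -0.044 to 0.24, limma adjusted p = 0.217). The makeup of the IRAK transcripts in the Met + LPS libraries was 28.8% and 29.9% Irak1, 56.3% and 55.1% Irak2, 8.97% and 9.32% Irak3, and 5.91% and 5.64% Irak4. The ratio of Irak2 to Irak1 was 1.901 ± 0.0808 with metformin (SD, n = 2), overlapping that of the LPS libraries.

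The comparison of Met + LPS vs. untreated set the pretreated and stimulated cells against the resting level, and it shares libraries with both other comparisons. Of the 10 genes 5 rose and 2 fell, while 16.3% of all tested genes rose and 58.8% fell, and none of the 10 passed a log2 fold change of 2, which 5.35% of all tested genes did. The count past this cut-off was 0 at an unadjusted p under 0.05 in limma, beside no less than those 5.35%. By voom it was 0, beside 12.3% of all genes by voom. Irak2 was at 3.03 times, Cd14 at 2.19 times and Myd88 at 1.99 times their untreated mean TPM, with log2 fold changes of 1.58, 1.13 and 0.98 (limma adjusted p = 1.81e-07, 4.66e-06 and 2.21e-06). Ly96 and Traf6 rose by 0.74 and 0.36 on the log2 scale (limma adjusted p = 6.78e-05 and 0.00116), the latter with its call lost without untreated replicate B (0.0152) or Met + LPS replicate A (0.01). Irak4 fell by 1.11 (limma adjusted p = 2.01e-06).

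The remaining genes depended on the scaling. Irak1 fell by 0.48 on the TPM scale (limma adjusted p = 2.99e-05) and was at 0.05 after rescaling (adjusted p = 0.23). Cd180 was at 0.14 (95% confidence interval 0.044 to 0.23, limma adjusted p = 0.014) and at 0.67 after rescaling. Irak3 was at 0.10 (95% confidence interval -0.041 to 0.23, limma adjusted p = 0.157) and at 0.61 after rescaling. Tirap was at -0.10 (95% confidence interval -0.22 to 0.018, limma adjusted p = 0.0989), and turned to 0.42 after rescaling (adjusted p = 0.00026). After rescaling 8 of the 10 genes rose and 1, Irak4, fell, beside 33.4% and 29.7% of all tested genes, and 1, Irak2, passed the cut-off, beside 5.25% of all tested genes.

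The coreceptors act with receptor chains, and the levels of these partners set their ratios in a library. Tlr4, the signaling chain of the LPS receptor, stood at 125 and 129 TPM in untreated, 40.4 and 43.1 TPM in LPS, and 34.6 and 34.8 TPM in Met + LPS libraries. It fell in LPS vs. untreated by 1.58 (limma adjusted p = 2.92e-07) and in Met + LPS vs. LPS by 0.26 on the log2 scale (adjusted p = 0.00349). After rescaling the log2 fold changes of Tlr4 were -1.06 and -0.25. Without any single library that in Met + LPS vs. LPS ran from -0.30 to -0.21 on the TPM scale. Cd14 to Tlr4 was thus 7.51 ± 0.315 in untreated, 66.1 ± 1.21 in LPS and 60.2 ± 1.30 in Met + LPS libraries (SD, n = 2). Ly96 to Tlr4 was 0.321 ± 0.0314 in untreated, 1.55 ± 0.0123 in LPS and 1.98 ± 0.147 in Met + LPS libraries, so that the transcript of the MD-2 subunit was below that of TLR4 at rest and above it with LPS.

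Ly86, which encodes the MD-1 partner of CD180, stood at 67.8 and 68.1 TPM in untreated, 59.3 and 64.7 TPM in LPS, and 42.3 and 37.9 TPM in Met + LPS libraries. The Met + LPS libraries were the lowest, and Ly86 fell in Met + LPS vs. LPS by 0.62 on the log2 scale (limma adjusted p = 0.00046). In LPS vs. untreated its log2 difference was -0.13 on the TPM scale (95% confidence interval -0.29 to 0.025, limma adjusted p = 0.1) and 0.39 after rescaling. Cd180 to Ly86 was 6.20 ± 0.0433, 9.17 ± 0.672 and 11.6 ± 0.365 in untreated, LPS and Met + LPS libraries (SD, n = 2), with no overlap between the groups.

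**Figure D4:**
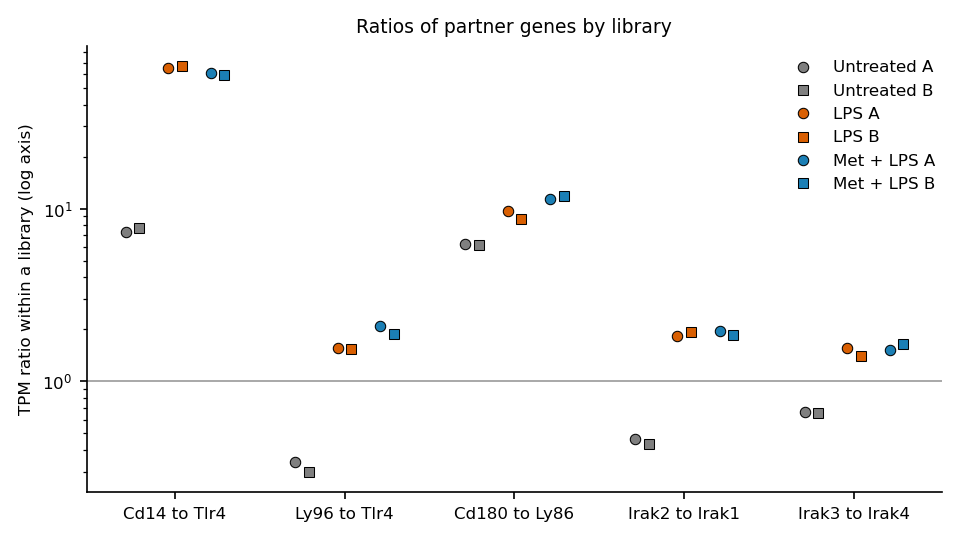
Ratios of TPM between partner genes within a library (vertical axis, log scale, with a line at 1) for the 6 libraries, with circles for replicate A, squares for replicate B and colours for the groups. Cd14 to Tlr4, Ly96 to Tlr4, Irak2 to Irak1 and Irak3 to Irak4 are higher in the 4 libraries with LPS than in the untreated ones, the last 3 crossing 1.

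The other genes of the pathway were described with 5 lists of 35 genes, of which 33 passed the filter and Lbp and Ube2v1 did not. In LPS vs. untreated 15 rose and 13 fell, beside 16.2% and 60.1% of all tested genes, and after rescaling 22 rose and 8 fell, beside 30.6% and 27.6%. In Met + LPS vs. LPS 9 rose and 12 fell, beside 14.5% and 18.0% of all tested genes, and after rescaling 9 rose and 11 fell, beside 15.6% and 17.4%. The counts of each list that follow are to be read against these shares. Calls of single list genes are those of the main fit or after rescaling, and their dependence on single libraries is not given here. The median log2 fold changes over the 33 genes were 0.16 and -0.12 in the respective comparisons, beside -0.48 and -0.03 over all tested genes.

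Among the receptor genes, 3 of 5 rose and 1 fell in LPS vs. untreated (4 and 1 after rescaling), and 1 rose and 3 fell in Met + LPS vs. LPS on either scale. Tlr2, the receptor of bacterial lipoproteins, rose by 4.19 and then by 0.43 on the log2 scale (limma adjusted p = 3.19e-09 and 0.000284), and its partner Tlr1 rose by 1.34 and then fell by 0.40 (5.8e-07 and 0.000517). Of the 7 genes of the TRIF branch, the MyD88-independent arm of TLR4 signaling, 3 rose and 3 fell with LPS on the TPM scale, of which rescaling left 4 that rose and 0 that fell, and 2 rose and 2 fell with metformin on either scale. Ticam1, which encodes TRIF, fell by 0.40 in LPS vs. untreated (limma adjusted p = 0.000502). After rescaling it was at 0.12 and did not pass (adjusted p = 0.1). In Met + LPS vs. LPS Ticam1 rose by 1.11 (limma adjusted p = 2.78e-05). Traf3 rose by 0.51 in Met + LPS vs. LPS, whereas the kinase genes Ikbke and Tbk1 fell by 0.36 and 0.32 (limma adjusted p = 0.000252, 0.00403 and 0.000319). In LPS vs. untreated Ikbke and Tbk1 rose by 1.74 and 0.43 and Ripk1 fell by 0.57, the last at -0.05 after rescaling (limma adjusted p = 1.03e-06, 2.08e-05 and 2.71e-05).

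Of 9 tested genes that act downstream of TRAF6, 3 rose and 4 fell in LPS vs. untreated (6 and 3 after rescaling), and 3 rose and 2 fell in Met + LPS vs. LPS on either scale. Tab1 and Tab2, which encode partners of the kinase TAK1, went opposite ways with LPS, by -2.56 and 1.30 (limma adjusted p = 1.29e-07 and 2.33e-07). Tab2 fell with metformin by 0.46 (limma adjusted p = 0.000121), while Ecsit and Ikbkg, which encode an adaptor of TRAF6 and the regulatory subunit of the IκB kinase, rose by 0.56 and 0.47 (adjusted p = 0.00102 and 0.00034). In LPS vs. untreated Ecsit and Ikbkg fell by 1.14 and 0.91 (limma adjusted p = 1.03e-05 and 4.02e-06). Of the Pellino genes, whose products ubiquitinate IRAKs, together with Tifa, 2 of 4 rose and 2 fell in LPS vs. untreated, and 1 rose and 2 fell in Met + LPS vs. LPS, on either scale. Peli1 rose by 4.08 with LPS while Peli2 and Peli3 fell by 1.07 and 0.96 (limma adjusted p = 2.17e-09, 1.44e-05 and 0.000144). With metformin Peli1 fell by 0.28, Peli2 rose by 0.49, and Tifa, the gene of a TRAF6-binding protein, fell by 0.77 (limma adjusted p = 0.000856, 0.00179 and 5.11e-05).

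Of 8 genes that inhibit the pathway, 4 rose and 3 fell in LPS vs. untreated (6 and 2 after rescaling), and 2 rose and 3 fell in Met + LPS vs. LPS (2 and 2 after rescaling). Tnfaip3, Socs1 and Nfkbia, feedback inhibitors of NF-κB and cytokine signaling, rose by 6.61, 5.38 and 4.75 with LPS (limma adjusted p = 9.37e-10, 1.12e-07 and 1.7e-09). Socs1 and Tnfaip3 fell with metformin by 0.81 and 0.29 (limma adjusted p = 0.00194 and 0.000845). Tollip, which binds IRAK1, rose with metformin by 0.52 (limma adjusted p = 0.00015), and in LPS vs. untreated it fell by 0.22 on the TPM scale and was at 0.30 after rescaling. Irak3, the inhibitory member of the IRAK genes, had log2 differences of 0.21 and -0.12 in the same comparisons on the TPM scale, neither of which passed the test.

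**Figure D5:**
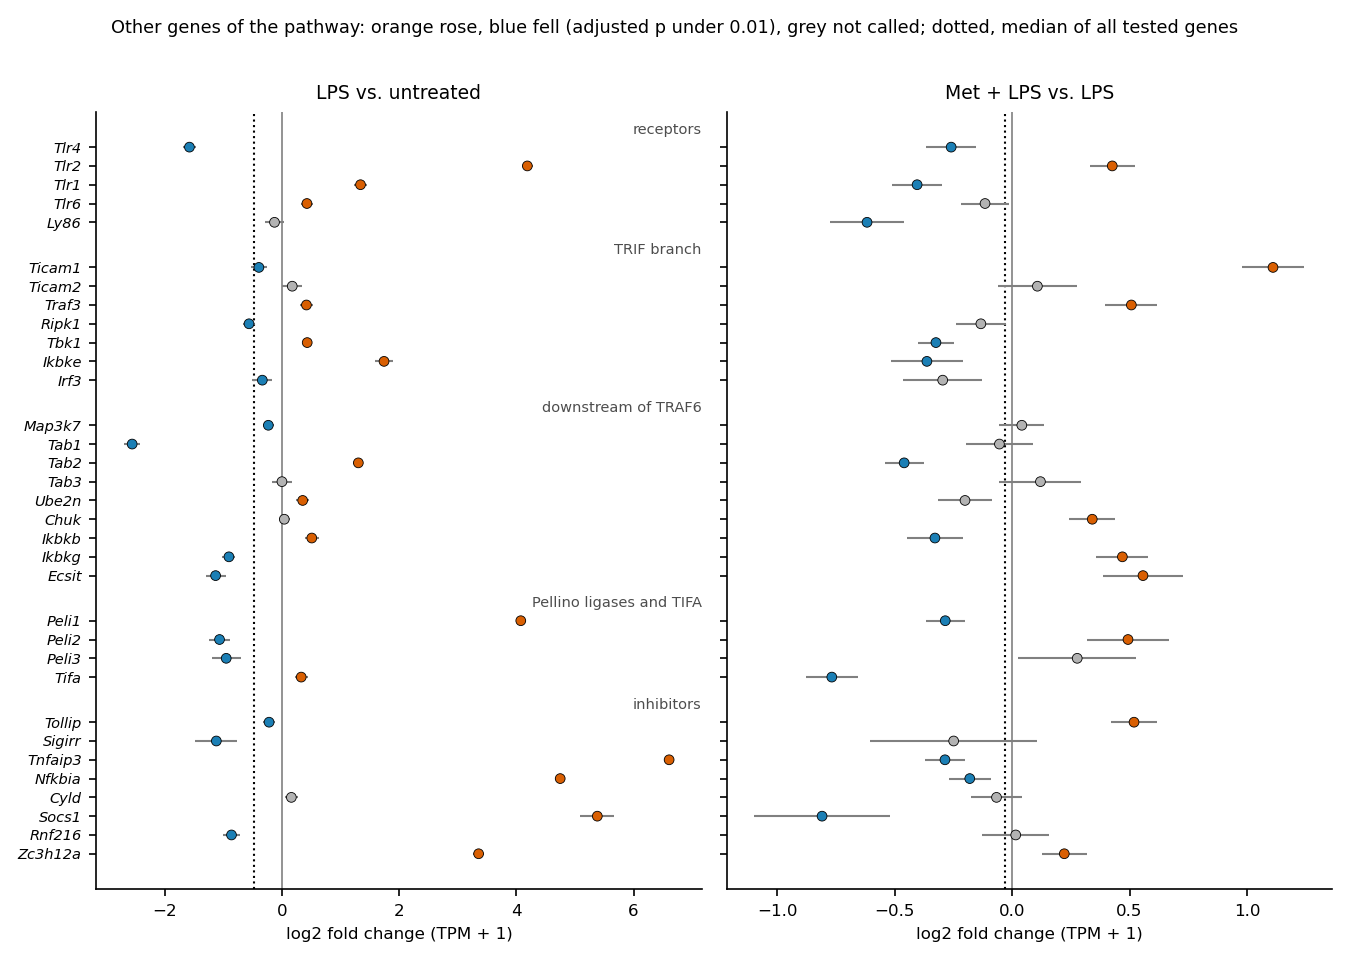
log2 fold change of the 33 other pathway genes with 95% confidence intervals (horizontal axes, log2 of TPM + 1, with different ranges) in LPS vs. untreated and Met + LPS vs. LPS, grouped by list. Orange marks genes that rose, blue genes that fell and grey genes that did not pass, and dotted lines mark the median of all tested genes at -0.48 and -0.03 on the TPM scale, so that small decreases in LPS vs. untreated such as that of Tollip at -0.22 turn upward after rescaling.

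Some of the exon sequence of 7 of the 10 genes is shared with another annotated gene. The shared part was largest for Myd88, where 11.3% of exon bases lie opposite Acaa1a, followed by Tirap with 9.84% opposite Srpr and Gm39318 and Irak4 with 7.87% opposite Twf1. It was 5.98% for Irak3, 4.44% for Irak2, 4.04% for Cd180 and 2.99% for Irak1, the last in miRNA genes on its own strand, and none for Cd14, Ly96 and Traf6. Whether reads were counted by strand, and how reads of shared bases were assigned, is not given in the sources used here. Such reads may have been left out or counted for either gene, and their part in these levels was not tested.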

How the data were processed

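The 10 genes and the lists were chosen with earlier results of these data known. Per the study's methods, the authors enriched poly-A RNA, aligned single-end reads to GRCm38 with STAR 2.6.1d, converted files with SAMtools 1.9 and counted reads per gene with featureCounts of Subread 1.6.3. The deposited table gives TPM, with a column for each library. How TPM was computed is not given in the sources used here. Scaling to a common total hides differences in total RNA per cell.

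The 12755 genes that reached 1 TPM in 2 or more of the 6 libraries entered a single limma fit (version 3.58.1, R 4.3.3) of log2(TPM + 1) over all libraries, with a mean-variance trend in eBayes and Benjamini-Hochberg adjustment, which left 3 residual degrees of freedom. Fold changes on this scale understate those of low genes. Multiplied by exon length (GENCODE annotation of GRCm38), 97.8% to 98.1% of values worth up to 200 reads were whole numbers of reads within 0.05, and these reads served for voom on 12750 genes. The precision that depth gives covers counting error only.

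Besides the 10 genes, the text names Tlr4 and Ly86 and, from each list, the 3 genes with the largest absolute change in LPS vs. untreated and in Met + LPS vs. LPS among those that passed. The 2 most similar genes were to be named for any of the 10 past the study's cut-off, which none was on the TPM scale of the main test. Same-lettered libraries did not deviate together (correlations of -0.0037, 0.028 and 0.0062 over 12755 genes between pairs of groups). Python 3.11.15, pandas 2.3.3, numpy 2.4.6, scipy 1.17.1 and matplotlib 3.10.9 served for tables and plots.

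Alternatives were a pseudocount of 0.1, no filter (23749 genes), a minimum of 5 TPM (9785 genes), rescaling by the median ratio, a fit without the third group, no trend in eBayes, a block for the replicate letter, voom, an adjusted p of 0.05, each library left out and, chosen after seeing the data, voom with rescaling. The authors' own test on counts was not repeated.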

Additional observations from a re-analysis of the deposited data

How the results depend on the processing

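Of 420 values of the 10 genes under alternative settings, 369 kept their direction and their side of the threshold. Rescaling by the median ratio turned Tirap and Irak1 in Met + LPS vs. untreated to 0.42 and 0.053 (0.44 and 0.055 by voom with rescaling), where Irak1 did not pass. With rescaling, in limma and by voom, 1 gene fell and 1 passed the fold-change cut-off in LPS vs. untreated, and in Met + LPS vs. untreated 8 rose, 1 fell and 1 passed the cut-off. The limma shares of all tested genes are given above, and those by voom with rescaling are not given. Over the pathway lists rescaling left 8 falls in LPS vs. untreated and 4 in Met + LPS vs. untreated, beside 27.6% and 29.7% of all tested genes. In Met + LPS vs. LPS 2 genes were called, both of them falls, with no filter and with eBayes without a trend, and 2 to 3 with each library left out, all falls. In that comparison Irak2 rose at an adjusted p of 0.05 and by voom with rescaling. The shares of all tested genes under these settings are not given here. The cause of the scaling shift was not tested.

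Whether same-lettered libraries shared a mouse or a culture is not given, and the correlations above cannot decide it. With the letter as a block in limma, each of the 10 genes kept its side of the threshold in every comparison, except Tirap in Met + LPS vs. LPS (adjusted p = 0.0149). Precision was limited by 2 libraries a group, and the fewest reads behind a value were the 282 of Ly96.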
